A study of Mus musculus with 26 samples.

Results

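The type I interferon response genes are 34 genes of a list of interferon-induced transcripts and their regulators, matched by symbol to the 52636 genes in the count files. All 34 passed the expression filter, as did 21371 genes in all. Type I interferons bind a receptor whose kinases activate transcription factors, STAT2 among them. STAT2 works with IRF9 in a complex that binds interferon-stimulated response elements (ISREs) in promoters and switches on antiviral genes. Microglia, the resident macrophages of the brain, both make and answer type I interferon, and an interferon-responsive state of these cells is known from aging, infection and neurodegeneration.

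Poly(A) RNA from mouse microglia was sequenced in 26 libraries of 7 genotypes, to ask how lowering Tmem106b, a gene for a lysosomal membrane protein, bears on cells short of progranulin, the lysosomal protein encoded by Grn. With Tmem106b WT there were 3 Grn WT, 5 Grn HET and 4 Grn KO libraries. With Tmem106b HET there were 4 Grn WT, 3 Grn HET and 3 Grn KO libraries, and Tmem106b KO was present in 4 libraries, all Grn WT. Per the labels, 14 libraries were female and 12 male, and the dissection was Entire in 18 and Hemi in 8. Sex and dissection coincided in the Tmem106b HET groups with Grn WT and with Grn KO, where females were Entire and males Hemi, and the other way round in Tmem106b WT Grn WT, where the female was Hemi and both males Entire. Replicate numbers were given here in accession order and only name a library. The kind of alleles, the age and strain of the mice, the isolation of the cells and the meaning of the dissection labels are not stated in the labels. No treatment is labelled. The labels do not state that libraries came from separate animals, so the p-values reflect library-to-library spread alone, which may be technical.

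Total counts were 37.6 to 63.7 M per library. Grn lay at no more than 16.0 CPM (counts scaled to library size, as edgeR defines them) in Grn KO libraries and at 554 CPM or more in Grn WT libraries. Tmem106b lay at 24.01 to 35.7 CPM in the Tmem106b KO libraries, below the 57.5 to 102 CPM of the 3 Tmem106b WT groups. The heterozygotes were less distinct. Tmem106b HET libraries held 39.1 to 83.4 CPM of Tmem106b and overlapped Tmem106b WT. Grn HET libraries held 824 to 2033 CPM of Grn, and the Grn WT library at 554 CPM, Tmem106b KO Grn WT replicate 2, lay below them. Tmem106b KO Grn WT replicate 2 and Tmem106b HET Grn KO replicate 3, both male and Hemi, stood apart. Their 10 microglia markers summed to 6962 and 7100 CPM, against 19676 to 58308 CPM in the other 24 libraries. Their 12 neuron markers summed to 6469 and 6394 CPM, against at most 2887 CPM elsewhere. No marker of either list was at 0 in any library. The main results that move with this pair of libraries are given with and without them.

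Promoter sequence is shown for some of the members that the results turn on and for Isg15 and Ifit1, textbook ISRE-driven genes. RefSeq promoters of build GRCm38.p6, spanning 250 bases before to 50 after each start, were matched for 25 of the 34 members. The ISRE core GAAANNGAAA, searched on both strands, occurred in 12 of the 25, or 48%, and in 3.99% of the 27025 genes with such a promoter. The gamma-activated sequence TTCNNNGAA, which reads the same on both strands, occurred in 7 of the 25, or 28%, and in 9.55% of all these genes. The following windows lie before the start of 5 members, 5′ to 3′ on the gene's strand. Capitals mark 1 match to the ISRE core, read on either strand. Isg15 lies at chr4:156200856-156200915 on the minus strand and holds 3 overlapping matches. Ifit1 lies at chr19:34640779-34640838 on the plus strand and holds 2. The window of Trim30a, before 1 of its starts, lies at chr7:104465195-104465254, Oas3 at chr5:120777700-120777759 and Rsad2 at chr12:26456538-26456597, all on the minus strand.
Isg15: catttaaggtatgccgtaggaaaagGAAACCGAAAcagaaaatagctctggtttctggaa
Ifit1: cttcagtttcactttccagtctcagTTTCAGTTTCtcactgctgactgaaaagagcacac
Trim30a: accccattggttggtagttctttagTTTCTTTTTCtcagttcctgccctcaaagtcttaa
Oas3: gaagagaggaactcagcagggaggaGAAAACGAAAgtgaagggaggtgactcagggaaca
Rsad2: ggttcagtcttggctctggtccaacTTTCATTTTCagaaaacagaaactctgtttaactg

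Cmpk2 is the neighbour of Rsad2, with 12751 bases between the 2 gene bodies on chromosome 12, and the genes point away from each other. No match to the ISRE core was found in its 300-base promoter window, which says only that these letters are not there. Irf1, Irf7, Irf9, Sp100, Herc6, Ifi35, Oasl2, Ifit2, Isg20, Xaf1, Oasl1 and Ifi44 had none either. The first 200 bases of that window, at chr12:26468965-26469164 on the plus strand, are shown for comparison with Rsad2.
Cmpk2: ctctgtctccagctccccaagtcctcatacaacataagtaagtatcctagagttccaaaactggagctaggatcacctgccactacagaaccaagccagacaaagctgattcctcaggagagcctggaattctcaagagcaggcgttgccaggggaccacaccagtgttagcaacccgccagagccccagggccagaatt

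The members spanned a wide range of levels. Per length, as mean CPM per kb of exon over 26 libraries, Bst2 was highest at 153, followed by Ifitm3 at 73.5, Ifi27l2a at 52.3 and Ifi35 at 46.0. Bst2 encodes tetherin, which holds budding virus at the cell surface, and Ifitm3 blocks the fusion of virus with endosomes. Oas3 at 0.135 and Ifi44 at 0.315 CPM per kb were lowest. In plain CPM, Bst2 held 121 ± 52.3 (SD, n = 26), the transcription factor gene Irf1 102 ± 34.9 and Irf9, which encodes the DNA-binding subunit of the complex with STAT2, 73.8 ± 25.3. Of members at 5 CPM or more on average, Ifi27l2a (coefficient of variation 0.773), Ifitm3 (0.705) and Zbp1 (0.690), a sensor of nucleic acids in the Z form, varied most between libraries. Stat2 varied least, with a coefficient of variation of 0.259. Zbp1 ran from 0 to 19.5 CPM, with a median of 5.93, and was at 0 in both libraries low in microglia markers. Isg15, the gene of the ubiquitin-like modifier, ran from 1.01 to 15.6 CPM. Below 10 CPM on average lay also Ifit1, Isg20, Rsad2, Oas2, Mx1, Mx2 and Oasl1, and between 10 and 35 CPM Parp14, Dhx58, Oasl2, Rtp4, Irf7, Ifi27l2a, Usp18, Ifit2, Xaf1, Herc6, Ifit3, Cmpk2, Ifih1 and Oas1a.

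Several members are neighbours. Ifit1, Ifit2 and Ifit3, which encode proteins that bind viral RNA and block its translation, lie on chromosome 19 between 34550694 and 34650009. Oas1a, Oas2 and Oas3, which encode synthetases that activate RNase L, lie on chromosome 5 between 120730333 and 120907521, and Oasl1 and Oasl2 lie on the same chromosome between 114896936 and 114937915. Mx1 and Mx2, genes of dynamin-like antiviral GTPases, lie on chromosome 16 between 97447035 and 97560900. Irf7, the factor that amplifies interferon production, shares 45 bases with Phrf1 on the opposite strand, and Irf9 shares 123 with Rnf31 on the same strand. How the counting treated strand and shared reads is not stated in the labels. Ifit3, Oas1a and Trim30a have close paralogs (Ifit3b, Oas1g and Trim30d) with which reads may be shared.

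The interferons themselves were hardly detected. Of 14 interferon genes, 2 passed the expression filter, Ifnb1 and Ifng. Ifnb1 had counts in 9 of 26 libraries and reached 1.69 CPM, in Tmem106b HET Grn HET replicate 3. Ifng, the gene of the type II interferon of lymphocytes, had counts in 22 libraries and reached 9.34 CPM in Tmem106b WT Grn HET replicate 2. The 10 T and NK cell markers summed to 6.03 to 173 CPM over the 26 libraries.

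Summed over the 34 members, levels differed more between libraries of a genotype than between genotypes. With Tmem106b WT, the 3 Grn WT libraries held 990.0, 728 and 1329.6 CPM, the 5 Grn HET libraries 953, 866, 958, 868 and 711 CPM, and the 4 Grn KO libraries 972, 747, 1061 and 1052 CPM. With Tmem106b HET, the 4 Grn WT libraries held 1066, 1122, 749 and 834 CPM, the 3 Grn HET libraries 1164, 953.5 and 1082 CPM, and the 3 Grn KO libraries 1253.5, 1107 and 351 CPM. The 4 Tmem106b KO libraries held 1944, 249.6, 1034 and 1006 CPM. The ranges of all 7 groups overlapped, and group means ran from 871 ± 100.2 CPM (SD, n = 5) in Tmem106b WT Grn HET to 1066 ± 106 CPM (n = 3) in Tmem106b HET Grn HET. The highest and the lowest sum of the series were both in the Tmem106b KO group.

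**Figure D1:**
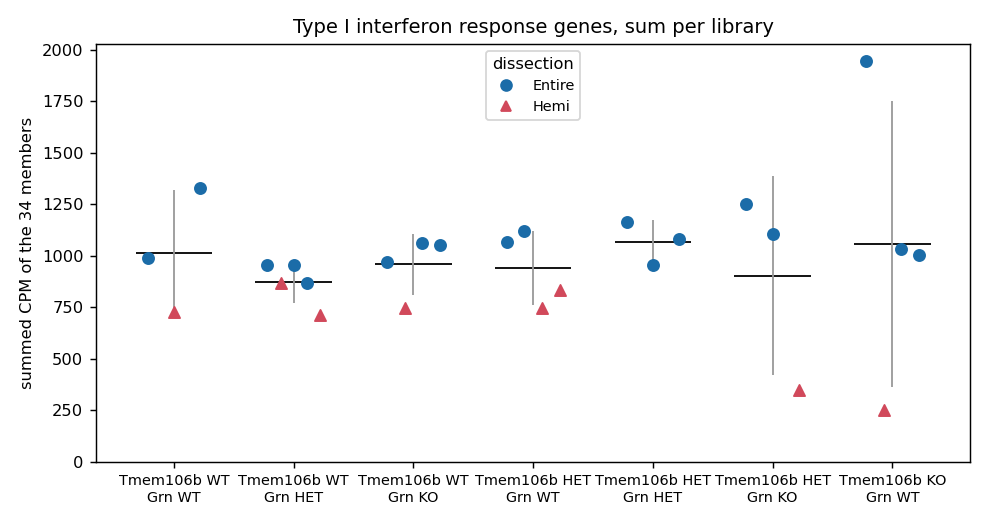
Summed CPM of the 34 interferon response genes (vertical axis) in each library, by genotype (horizontal axis); circles are Entire and triangles Hemi libraries, black lines are group means and grey lines 1 SD. The 8 Hemi libraries sit between 249.6 and 866 CPM, just below the 18 Entire libraries at 868 to 1944 CPM.

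A single library carried most of the highest values. Tmem106b KO Grn WT replicate 1, a female Entire library, was the highest of 26 for 19 of the 34 members. It held 98.2 CPM of Ifi27l2a, 193 CPM of Ifitm3, 67.4 CPM of Usp18 and 67.9 CPM of Irf7. Usp18 encodes the protease that removes ISG15 from proteins and restrains the interferon receptor. The other 3 Tmem106b KO libraries held 3.51, 38.9 and 13.9 CPM of Ifi27l2a, 7.98, 62.4 and 62.6 CPM of Ifitm3, and 5.40, 38.3 and 31.8 CPM of Irf7. Its microglia markers summed to 52798 CPM, within the range of the other libraries. Tmem106b WT Grn WT replicate 3, a male Entire library, was among the highest 3 libraries for 15 members and held 43.8 CPM of Irf7 and 84.7 CPM of Ifitm3. At the other end, Tmem106b KO Grn WT replicate 2 was the lowest library for 21 members and Tmem106b HET Grn KO replicate 3 for 9.

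**Figure D2:**
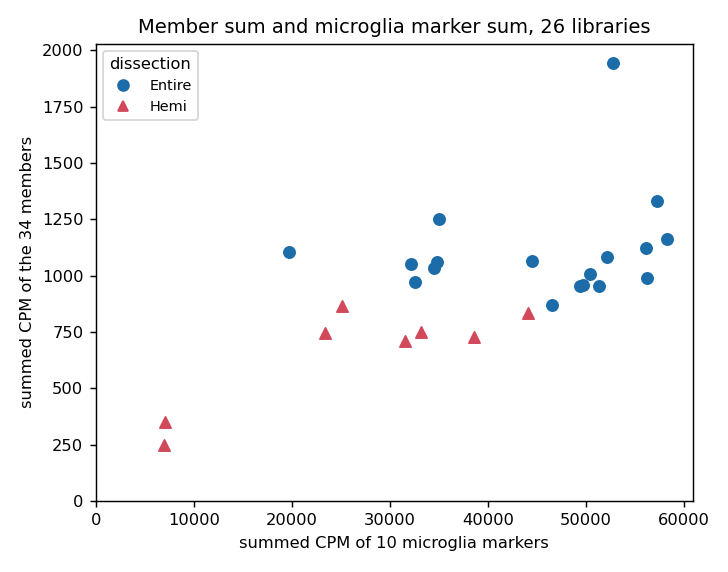
Summed CPM of the 34 interferon response genes (vertical axis) against summed CPM of 10 microglia markers (horizontal axis) in 26 libraries; circles are Entire and triangles Hemi libraries. The pair of libraries at 6962 and 7100 CPM of microglia markers holds 249.6 and 351 CPM of the members, and an Entire library at 19676 CPM of markers holds 1107 CPM.

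Loss of Grn with Tmem106b WT gave no member that passed. In edgeR's quasi-likelihood test 0 of 34 members passed, against 0.576% of all genes. No member had an unadjusted p under 0.05, beside 2647 of 21371 genes, and DESeq2 and limma-voom called 0 members. Trim30a, the gene of a ubiquitin ligase that restrains innate immune signalling, held 58.3, 38.3 and 103 CPM in Grn WT and 54.4, 33.5, 55.8 and 51.6 CPM in Grn KO. The KO libraries lay within the WT range but for 1 library below it. Its log2 fold change was -0.54 ± 0.29 (SE), with an edgeR adjusted p of 0.474. Rtp4, which encodes an interferon-induced chaperone of receptors, held 20.1, 18.5 and 52.1 CPM against 20.0, 15.6, 16.8 and 18.7 CPM, a log2 fold change of -0.97 ± 0.60 with an edgeR adjusted p of 0.538. The median log2 fold change of the members was -0.31, against 0.10 over all genes. It was -0.15 without the pair of libraries, -0.26 among the 18 Entire libraries and -0.30 with sex only. With neuron and oligodendrocyte marker sums as added covariates it was -0.16, and without covariates -0.03. In the same comparison the 10 microglia markers had a median of -0.99, with 1 that passed, and the 12 neuron markers one of 2.23, with none that passed and 10 at an unadjusted p under 0.05. Their part in the member values was not tested.

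With Tmem106b HET the same loss of Grn again gave 0 of 34 members in edgeR, in a comparison where 14.5% of all genes passed. At an unadjusted p under 0.05 there were 5 members, lower for Trim30a, Irf1, Irf9 and Ifih1 and higher for Cmpk2. Over all genes 6366 of 21371 lay under this p. DESeq2 called 1, Trim30a (log2 fold change -0.75 ± 0.28, DESeq2 adjusted p 0.0375), and limma-voom 0. These methods called 24.6% and 18.2% of all genes. Trim30a held 60.6, 87.2, 35.5 and 47.5 CPM in Grn WT and 61.0, 44.9 and 15.9 CPM in Grn KO. The last of these is replicate 3, and the other KO libraries lay inside the WT range. Its log2 fold change was -0.81 ± 0.30 with an edgeR adjusted p of 0.0728. Irf1 held 101, 174, 83.3 and 117 CPM in Grn WT and 87.2, 103 and 33.7 CPM in Grn KO, again with replicate 3 alone below the WT range. The log2 fold change of Irf1 was -0.98 ± 0.38 with an edgeR adjusted p of 0.0915.

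In this comparison the median of the members turned positive without the pair of libraries and among the Entire libraries. With other covariates it moved toward 0. The median log2 fold change of the 34 members was -0.60 over 26 libraries, against -0.024 over all genes. Without the pair of libraries that stood apart it was 0.28, with 19 members above 0. Among the 18 Entire libraries it was 0.11. With all 26 libraries it was 0.03 without covariates, with 17 members above 0 and 17 below. It was -0.20 with sex only and -0.39 with neuron and oligodendrocyte marker sums as added covariates. In the same comparison over 26 libraries 8 of 10 microglia markers fell, with a median log2 fold change of -1.77, and 9 of 12 neuron markers rose, with a median of 3.45. Without the pair 8 microglia markers fell (median -1.31) and 8 neuron markers rose (median 3.53). Microglia marker sums were 33209 to 56109 CPM in the 4 Grn WT and 35009, 19676 and 7100 CPM in the 3 Grn KO libraries. The part of cell content in these values was not tested. In bulk samples fewer cells of a type and less RNA per cell cannot be told apart.

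Cmpk2, which encodes a mitochondrial nucleotide kinase induced by interferon, was 1 of 11 members with a log2 fold change above 0 in this comparison and the one of these at an unadjusted p under 0.05. Cmpk2 held 7.03, 7.63, 18.2 and 14.9 CPM in the 4 Tmem106b HET Grn WT libraries and 15.5, 29.5 and 11.7 CPM in the 3 Tmem106b HET Grn KO libraries. In Grn WT the low pair is Entire and the high pair Hemi. Over 26 libraries the log2 fold change was 0.99 ± 0.44 and the edgeR adjusted p 0.142. Without Tmem106b HET Grn KO replicate 2, the library at 29.5 CPM, it was 0.40 ± 0.44 with an edgeR adjusted p of 0.607. Without the pair of libraries it rose by 1.33 ± 0.38 with an edgeR adjusted p of 0.0413, and among the 18 Entire libraries by 1.597 ± 0.34 with an edgeR adjusted p of 0.0160. Cmpk2 was then the single member called, beside 6.98% and 6.89% of all genes. In both settings the Grn KO group held replicates 1 and 2 alone, at 15.5 and 29.5 CPM. Among the Entire libraries the Grn WT group likewise held replicates 1 and 2 alone, at 7.03 and 7.63 CPM. All of these libraries were female. With neuron and oligodendrocyte marker sums as covariates the log2 fold change of Cmpk2 was -0.48 ± 0.49, with an edgeR adjusted p of 0.803.

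Rsad2, its neighbour and the gene of the radical enzyme viperin, was called in neither setting. In Tmem106b HET libraries it held 9.23, 5.13, 16.0 and 2.75 CPM with Grn WT and 8.28, 20.8 and 3.19 CPM with Grn KO. Tmem106b HET Grn KO replicate 2 was the highest of the Entire libraries for both genes. In Tmem106b KO Grn WT replicate 2 they parted, with 58.4 CPM of Cmpk2, the highest of 26 libraries, and 0 counts of Rsad2.

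**Figure D3:**
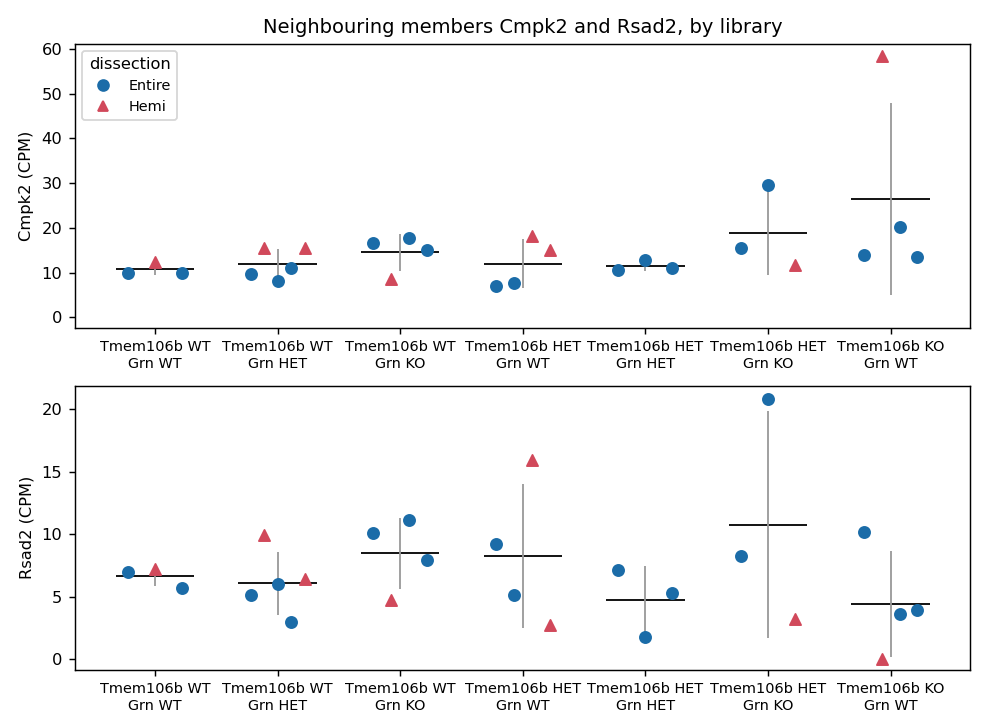
CPM of Cmpk2 (upper panel) and Rsad2 (lower panel) in each library by genotype; circles are Entire and triangles Hemi libraries, black lines are group means and grey lines 1 SD. One Tmem106b KO library holds 58.4 CPM of Cmpk2 and no count of Rsad2.

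Other genes of the pathway, from 4 lists beside the interferon genes, were counted in the Grn KO comparison with Tmem106b HET, where 6.05% of all genes were called lower. Over 26 libraries none of the 4 lists had a gene that passed in the other 7 pairwise comparisons by edgeR. Of 14 receptor and JAK-STAT genes 7 fell and none rose. They include Socs3, a feedback inhibitor of cytokine signalling (log2 fold change -1.62 ± 0.36, edgeR adjusted p 0.00741), and Tyk2, a kinase of the interferon receptor (-1.19 ± 0.29, adjusted p 0.0116). Of 26 genes for nucleic acid sensing and interferon induction 11 fell and none rose, among them the double-stranded RNA receptor gene Tlr3 (-1.83 ± 0.36, edgeR adjusted p 0.00422) and Tmem173, the gene of STING (-1.58 ± 0.35, adjusted p 0.00657). Of 56 further interferon-stimulated genes 4 fell, a share near that of all genes, including Uba7, the gene of the enzyme that activates ISG15 (-1.30 ± 0.29, edgeR adjusted p 0.00692), and Parp10 (-1.38 ± 0.32, adjusted p 0.00840). Of 27 genes of interferon-gamma type GTPases and antigen processing 5 fell, with Irgm2 at -1.92 ± 0.40 (edgeR adjusted p 0.00544) and Igtp at -1.21 ± 0.34 (adjusted p 0.0226). Without the pair of libraries, where 2.96% of all genes were called lower, 3, 9, 2 and 2 genes of the 4 lists fell, in the same order, and 0, 0, 2 and 1 rose. In the same setting 1, 4, 1 and 1 fell and 0, 0, 1 and 1 rose for Grn KO with Tmem106b WT, beside 1.29% of all genes called lower. The microglia and neuron marker values given for this comparison stand beside these counts too, and their part was not tested.

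Loss of Tmem106b with Grn WT called 0 members in edgeR, against 0.00468% of all genes, and 0 by DESeq2 and limma-voom. In edgeR 1 member had an unadjusted p under 0.05, beside 2349 of 21371 genes. That member was Cmpk2, at 9.95, 12.3 and 9.91 CPM in Tmem106b WT and 13.96, 58.4, 20.1 and 13.4 CPM in Tmem106b KO. The groups did not overlap, at 12.3 against 13.4 CPM where they came closest, and the replicate at 58.4 CPM is the one low in microglia markers. The share of all genes whose groups part in this way was not counted. Its log2 fold change was 1.19 ± 0.44 (edgeR adjusted p 0.434), and 0.70 ± 0.35 without the pair of libraries (edgeR adjusted p 0.793). Trim30a held 95.4, 16.2, 57.5 and 51.7 CPM in Tmem106b KO, where replicate 2 alone lay below the Tmem106b WT range, with a log2 fold change of -0.43 ± 0.29 (edgeR adjusted p 0.574). The median of the members was -0.19 over 26 and 0.18 over 24 libraries, against 0.067 and 0.076 for all genes. It was -0.59 without replicate 1 of Tmem106b KO and 0.15 without replicate 2.

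Partial loss of either gene called no member. With Grn HET, 0 members passed in edgeR, DESeq2 and limma-voom with Tmem106b WT (0.0% of all genes in edgeR) and with Tmem106b HET (0.0%). Neither had a member at an unadjusted p under 0.05 in edgeR, beside 734 and 1183 of 21371 genes. Smallest in p with Tmem106b WT were Oas3 (log2 fold change 4.26 ± 2.06) and Dhx58, the gene of the sensor LGP2 (-0.70 ± 0.43), both with an edgeR adjusted p of 1. Dhx58 held 32.9, 32.5 and 47.4 CPM in Grn WT and 36.1, 14.7, 12.1, 33.3 and 25.1 CPM in Grn HET. The groups overlapped. With Tmem106b HET they were Ifit2 (-0.95 ± 0.46) and Oas3 (-4.02 ± 1.98), both with an edgeR adjusted p of 0.854. Ifit2 held 45.3, 28.0, 18.9 and 15.7 CPM in Grn WT and 31.6, 6.86 and 8.64 CPM in Grn HET, with 2 of the 3 HET libraries below all of WT.

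With Tmem106b HET against WT, edgeR, DESeq2 and limma-voom called 0 members in the Grn WT, Grn HET and Grn KO backgrounds, where 0.0%, 0.0% and 0.0% of all genes passed in edgeR. The members at an unadjusted p under 0.05 in edgeR numbered 0, 1 and 0, beside 745, 1451 and 811 of 21371 genes. With Grn WT the smallest p belonged to Oas3 (3.83 ± 2.03) and Ifi44 (-3.32 ± 2.49), each with an edgeR adjusted p of 1. Ifi44, an interferon-induced gene of low level here, held 1.31, 0 and 2.74 CPM in Tmem106b WT and 0.673, 0.843, 0 and 0 CPM in Tmem106b HET. With Grn HET they were Oas3 (-4.45 ± 2.03, edgeR adjusted p 0.719) and Irf1 (0.57 ± 0.39, adjusted p 0.832). Irf1 held 112, 103, 86.9, 103 and 65.3 CPM in Tmem106b WT Grn HET and 167, 143 and 132 CPM in Tmem106b HET Grn HET. The groups did not overlap, and the share of all genes that part in this way was not counted. With Grn KO they were Herc6 (-0.64 ± 0.42) and Irf1 (-0.49 ± 0.37), each with an edgeR adjusted p of 0.918. Herc6, the main ISG15 ligase of mice, held 21.9, 18.8, 21.3 and 20.2 CPM in Tmem106b WT Grn KO and 21.3, 20.2 and 3.48 CPM in Tmem106b HET Grn KO.

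Neither test of whether a Grn effect differed between the Tmem106b backgrounds called a member in edgeR, DESeq2 or limma-voom. For Grn KO (0.0% of all genes in edgeR) no member had an unadjusted p under 0.05, beside 917 of 21371 genes. Irf1 (difference in log2 fold change -0.86 ± 0.52) and Sp100 (-0.80 ± 0.56) both had an edgeR adjusted p of 0.872. For Grn HET (0.0% of all genes) 1 member did, beside 1196 of 21371 genes. It was Oas3, at -8.28 ± 3.14 with an edgeR adjusted p of 0.876. Next was Oas1a at 0.91 ± 0.77 with an edgeR adjusted p of 0.992. Oas3 never exceeded 2.18 CPM and had 0 counts in 8 of 26 libraries, so its fitted values depend on the prior count.

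**Figure D4:**
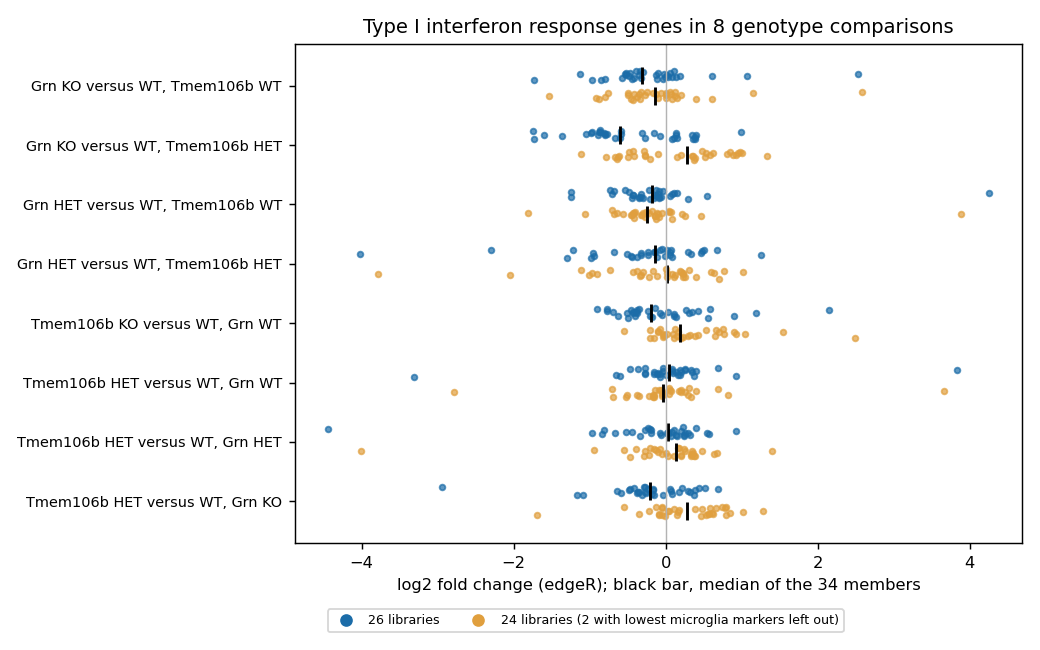
Log2 fold changes (horizontal axis, edgeR) of the 34 interferon response genes in the 8 pairwise genotype comparisons (vertical axis), from all 26 libraries (blue) and without the 2 libraries lowest in microglia markers (orange); each dot is a gene and black bars are medians. For Grn KO with Tmem106b HET the median moves from -0.60 to 0.28.

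Male against female libraries called 0 members in edgeR (0.0281% of all genes), DESeq2 and limma-voom. In edgeR 1 member had an unadjusted p under 0.05, beside 681 of 21371 genes. That was Oas1a, lower in males at -0.67 ± 0.29 with an edgeR adjusted p of 1. Its lowest library was at 1.81 CPM and its highest at 33.6 CPM, both in the Tmem106b KO group. Oas3 was next at 2.32 ± 1.16, also with an edgeR adjusted p of 1, and its value was -0.34 with sex as the only covariate. The median over the members was -0.27, against -0.006 over all genes, and -0.05 without the pair of libraries, both of which are male.

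Members passed in the comparison of Hemi with Entire libraries. In the fit that held genotype and sex, 9 of the 34 members fell in Hemi and none rose, beside 20.7% of all genes called in either direction and 9.03% called lower. At an unadjusted p under 0.05 there were 16 members, beside 7077 of 21371 genes. DESeq2 called 12 and limma-voom 13, all lower, beside 29.5% and 23.8% of all genes called in either direction. The median log2 fold change of the members was -0.84, against -0.086 over all genes, and 33 of 34 were below 0. Without the pair of libraries, both Hemi, the median was -0.39 with 29 below 0, and among the 14 female libraries -0.22 with 23 below 0. The female Hemi libraries were replicate 2 each of Tmem106b WT Grn WT, Grn HET and Grn KO. The first is the only female of its genotype. Among Hemi libraries the female median therefore rests on the Grn HET and Grn KO ones. Dissection and sex coincide in 3 groups.

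By role, the effectors gave 2 of 9 called (Oas3, Oasl2), the sensors 1 of 4 (Ddx58) and the transcription factors 1 of 4 (Irf9). The membrane and particle restriction factors, among which the kinase gene Cmpk2 was counted here, gave 1 of 6 (Bst2). The ubiquitin-like modifiers and their regulators gave 2 of 4 (Trim30a, Herc6) and the other induced genes 2 of 7 (Sp100, Ifi35). Trim30a ran from 15.9 to 47.5 CPM in the 8 Hemi libraries (median 36.0) and from 44.9 to 103 CPM in the 18 Entire ones (median 56.3). The ranges touched only between 44.9 and 47.5 CPM. Its log2 fold change was -0.99 ± 0.19 with an edgeR adjusted p of 0.00165.

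Irf9 ran from 18.6 to 83.0 CPM in Hemi (median 52.8) and from 58.8 to 125 CPM in Entire libraries (median 82.9). Its log2 fold change was -0.90 ± 0.23 with an edgeR adjusted p of 0.00993. Within each of the 6 genotypes that hold both dissections, the mean of the Hemi libraries was the lower one for Irf9, as for Trim30a. In some of these genotypes a single library is Hemi. Ddx58, the gene of the RNA sensor RIG-I, ran from 3.57 to 41.0 CPM in Hemi (median 31.9) and from 18.6 to 77.8 CPM in Entire libraries (median 47.1), with a log2 fold change of -1.08 ± 0.32 and an edgeR adjusted p of 0.0208. Herc6 ran from 3.48 to 20.8 CPM (median 17.8) and from 14.6 to 33.8 CPM (median 23.4), at -0.90 ± 0.27 with an edgeR adjusted p of 0.0225. Both sets of ranges overlapped.

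Sp100, which encodes a protein of nuclear PML bodies, ran from 6.92 to 40.6 CPM in Hemi (median 29.7) and from 36.3 to 71.1 CPM in Entire libraries (median 44.9). Its log2 fold change was -0.84 ± 0.25 with an edgeR adjusted p of 0.0227. Oas3 ran from 0 to 0.372 CPM in Hemi (median 0) and from 0 to 2.18 CPM in Entire libraries (median 0.932). It was called lower with an edgeR adjusted p of 0.00631, and its fitted log2 fold change of -6.33 ± 1.48 depends on the prior count at such low counts. Bst2 (-0.84 ± 0.28, edgeR adjusted p 0.0394), Ifi35 (-0.70 ± 0.24, adjusted p 0.0398) and Oasl2 (-0.84 ± 0.29, adjusted p 0.0472) also passed. Bst2 ran from 19.7 to 106 CPM in Hemi (median 80.8) and from 90.3 to 261 CPM in Entire libraries (median 129.8).

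**Figure D5:**
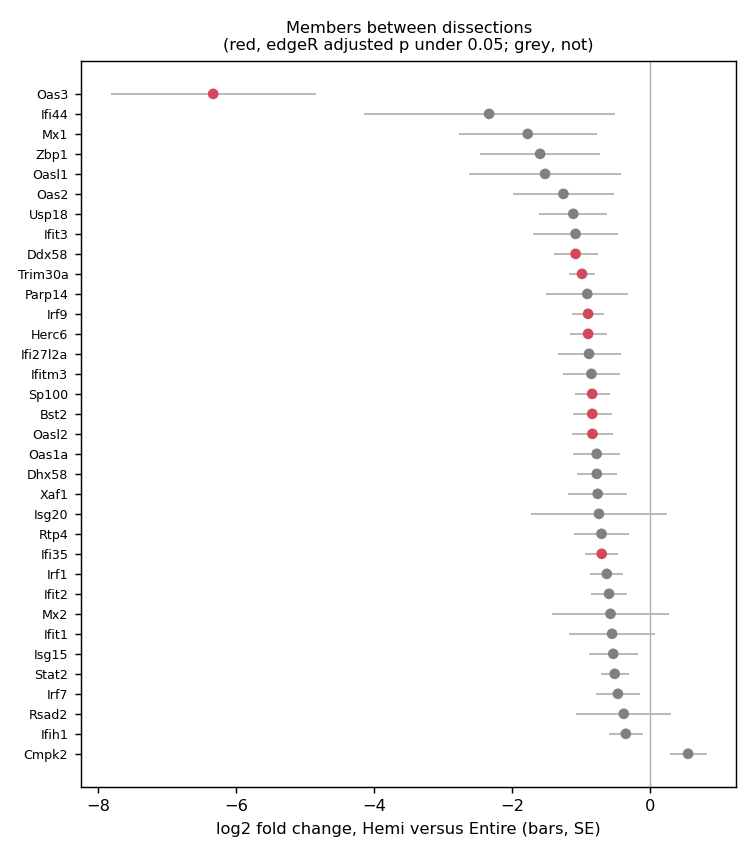
Log2 fold change of each of the 34 interferon response genes between Hemi and Entire libraries (horizontal axis; bars are SE), sorted by size, with the 9 genes that passed in edgeR in red. Cmpk2, at 0.55, is the single gene above 0.

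Over 6 genotypes with both dissections, the Hemi mean was the lower one in all 6 for 16 members, in 5 for 12 and in 4 for another 4. The share of all genes with such a pattern was not counted. A single library is Hemi in Tmem106b KO Grn WT, Tmem106b HET Grn KO, Tmem106b WT Grn KO and Tmem106b WT Grn WT. In the first 2 of these it is a library of the pair low in microglia markers. Cmpk2 was lower in 2. Cmpk2 ran from 8.59 to 58.4 CPM in Hemi (median 15.2) and from 7.03 to 29.5 CPM in Entire libraries (median 11.9). The other pathway lists had genes called lower too, beside 9.03% of all genes over 26 libraries. Of 14 receptor and JAK-STAT genes 10 fell, including the receptor subunits Ifngr2 (-0.61 ± 0.14, edgeR adjusted p 0.00475) and Ifnar2 (-0.74 ± 0.17, adjusted p 0.00579). Of 26 sensing and induction genes 13 fell, of 56 further interferon-stimulated genes 20 and of 27 interferon-gamma type and antigen processing genes 12, and none rose. Without the pair of libraries, where 2.84% of all genes were called lower, 5, 12, 5 and 8 genes of the 4 lists fell. The genes called over 26 libraries include Samhd1, the gene of a nucleotide hydrolase (-0.93 ± 0.19, edgeR adjusted p 0.00255), Irf2 (-0.74 ± 0.16, adjusted p 0.00404), Uba7 (-0.81 ± 0.17, adjusted p 0.00375) and Trim30d (-1.40 ± 0.33, adjusted p 0.00618). Among the GTPase genes, Gbp9 (-0.82 ± 0.19, edgeR adjusted p 0.00578) and Igtp (-0.86 ± 0.21, adjusted p 0.00728) had the smallest p.

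Cell markers moved in the same comparison. Of 10 microglia markers 9 fell in Hemi, with a median log2 fold change of -0.92, and their sums ran from 6962 to 44043 CPM in Hemi and from 19676 to 58308 CPM in Entire libraries. Of 10 border macrophage markers 9 fell, with sums of 375 to 739 CPM in Hemi and 739 to 1467 CPM in Entire libraries, and Lyve1 was at 0 in 4 libraries. Of 12 neuron markers 11 rose, with a median of 2.72 and sums of 605 to 6469 CPM in Hemi and 66.0 to 2335 CPM in Entire libraries. With the neuron and oligodendrocyte marker sums as covariates 0 members passed in edgeR, as did 0 of all genes, with 1 member at an unadjusted p under 0.05. The median was then -0.70, and 33 of 34 members were still below 0. Without the 2 libraries lowest in microglia markers 2 members passed, Trim30a (-0.72, edgeR adjusted p 0.0132) and Oas3 (-5.54, adjusted p 0.0321), beside 7.45% of all genes. Among the 14 female libraries 0 passed, with 5 at an unadjusted p under 0.05 and 0.00433% of all genes called in edgeR. That fit rests on few Hemi libraries, as given above. The part of cell content in the lower member levels was not tested.

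The members rose and fell together across libraries, to differing degrees. Pearson's correlation of each member's log2 CPM with the mean z-score of the others, over 26 libraries that share their preparation and cell content, had a median of 0.79. Sp100 (0.93), Trim30a (0.90) and Ifit3 (0.89) were the closest and Cmpk2 the farthest (-0.41). Such values were not particular to the members. The microglia marker P2ry12 lay at 0.74 and the receptor gene Ifnar1 at 0.71 against the members' mean z-score. How all genes spread on this measure is not given here. Over the 24 libraries left without the pair low in microglia markers the median of the members was 0.55. There 2 members lay above 0.8, Usp18 and Ifitm3, both at 0.83. Trim30a was then at 0.79, while Ifih1, the gene of the RNA sensor MDA5, and Cmpk2 were at 0.00. Parp14, the gene of an ADP-ribosyltransferase, was at 0.04.

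The 5 genes outside the list whose log2 CPM most resembled the mean z-score of the members over 26 libraries were Ube2l6 (Pearson's r 0.93), Psmb8 (0.93), Rac2 (0.92), Ly6e (0.92) and Lgals9 (0.92). Over 24 libraries Ube2l6 (0.78), Ly6e (0.78), Slfn2 (0.77) and Phf11b (0.77) were among the 5 most alike. Ube2l6 and Ly6e are in both sets. The microglia marker P2ry12 lay at 0.74 over 26 and 0.28 over 24 libraries, the neuron marker Snap25 at -0.58 and -0.31, and the receptor gene Ifnar1 at 0.71 and 0.18.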

How the data were processed

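Poly(A) RNA of mouse microglia was amplified with SMART-Seq chemistry for low input, per the labels' protocols. Each deposited file holds raw exonic counts per gene and RPKM values made by the authors, per the file headers; RPKM was not used. The submitters' processing notes name GSNAP and GRCm38. The counter, annotation release and strand handling are not given in the sources used here. Libraries carry no molecular identifiers.

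Counts were fitted with edgeR 4.0.16 (R 4.3.3) on 21371 genes kept by its expression filter, with TMM scaling, 7 genotype groups and sex and dissection as covariates over all 26 libraries. Tests were two-sided quasi-likelihood F-tests with Benjamini-Hochberg adjustment over all genes, passing under 0.05. The SE given with edgeR values was derived from the test, as the absolute log2 fold change over the square root of F. The 12 tests comprise 8 pairwise, 2 interaction, sex and dissection tests; the script was tested on simulated data. CPM uses TMM-scaled totals. Depth was 37.6 to 63.7 M counts (median 48.75 M).

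Alternatives were RLE size factors, DESeq2 1.42.0, limma-voom (limma 3.58.1), a weaker filter of any count and a filter of 1 CPM in 3 libraries, no covariates, sex only, marker sums as covariates and each library left out. The 5 pathway lists, 13 marker lists and 34 members were chosen with earlier results of these data known. Named are up to 6 members that passed per comparison, otherwise the 2 of smallest p; the 3 highest in mean CPM; the 3 most variable of at least 5 CPM; Irf7; at most 2 genes per pathway list; and the 5 genes outside the list most correlated with the members, of which 1 is not reported here. Other members were named after their values were seen. The 14 interferon genes, 14 receptor and JAK-STAT genes, 26 of 27 sensing genes, 56 of 57 further interferon-stimulated genes and 27 interferon-gamma type genes entered the tests as far as they passed the filter. Marker sums of neurons and oligodendrocytes served as covariates. Symbols and coordinates come from GENCODE (52489 of 52636 genes matched) and promoters from RefSeq.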

Additional observations from a re-analysis of the deposited data

Results flagged for a closer look

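In groups of 4 or 5 libraries, 76 sets of values were searched for a library far from the others by Dixon's criterion, which chance meets in about 5% of sets, and 5 met it. Cmpk2 stood at 58.4 CPM in Tmem106b KO Grn WT replicate 2, with the other 3 libraries at 13.4 to 20.1 CPM. Sp100 stood low at 22.9 CPM in Tmem106b WT Grn HET replicate 5, a Hemi library, and high at 60.6 CPM in Tmem106b WT Grn KO replicate 1, where the other 3 held 40.3 to 40.5 CPM. Irf9 stood low at 47.2 CPM in Tmem106b WT Grn KO replicate 2, the Hemi library of that group. Bst2 stood high at 132.2 CPM in Tmem106b WT Grn HET replicate 3, against 96.7 to 107 CPM in the other 4.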

How the results depend on the processing

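No paired analysis was possible because the labels give no replicate numbers (those used here follow accession order). For Grn KO with Tmem106b HET the 0 members called became 1 with DESeq2 (Trim30a), beside 24.6% of all genes. The count was 1 each (Cmpk2) without the 2 libraries lowest in microglia markers and among the 18 Entire libraries. All genes called were 6.98% and 6.89% in these 2 settings of the comparison, which were chosen after seeing the data. Both settings leave only replicates 1 and 2 in the Tmem106b HET Grn KO group. Leaving out each library gave 0 to 2 there: 2 without Tmem106b KO Grn WT replicate 2 (Trim30a, Irf1), 1 without Tmem106b HET Grn KO replicate 3 (Cmpk2) and 1 without Tmem106b HET Grn WT replicate 1 (Irf1). For Hemi against Entire 9 members were called, beside 20.7% of all genes. With marker sums as covariates 0 were called, as were 0 of all genes (median log2 fold change -0.70, against -0.84). In settings chosen after seeing the data 2 were called without the pair of libraries (median -0.39), beside 7.45% of all genes. Among the 14 female libraries, with few Hemi libraries, 0 were called (median -0.22), beside 0.00433% of all genes. Leaving out each library gave 4 to 11: 4 without Tmem106b WT Grn WT replicate 2, and 5 each without Tmem106b KO Grn WT replicate 2 and Tmem106b WT Grn KO replicate 1. The shares of all genes called in the fits that leave out 1 library are not given here, for either comparison. Without Tmem106b HET Grn KO replicate 3 or Tmem106b WT Grn KO replicate 2, Cmpk2 passed as higher in Hemi, at log2 fold changes of 0.71 and 0.80. Fewer samples enter the fits that leave libraries out, while the DESeq2 and marker-sum fits keep all 26 libraries. The cause of these moves was not tested. The log2 fold change of Oas3 in males was 2.32 and became -0.34 with sex as the only covariate. The counts of members called in the other 7 pairwise comparisons, both interactions and the sex comparison stayed at 0 under every alternative run. The fit without covariates gives no value for sex or dissection, and the fits with sex only and on Entire libraries none for dissection. Members at low counts, such as Oas3 and Ifi44 with 0 counts in 8 and 9 of 26 libraries, limit what fold changes can show.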
